A study of Mus musculus with 2 samples.

Results

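The genes that present peptides on MHC class I molecules were examined on 2 one-colour Agilent microarrays of mouse spleen RNA, 1 labelled Loxl3 knockout and 1 labelled Loxl3 wild type. They are B2m, H2-K1, H2-D1, H2-T23, H2-M3, Tap1, Tap2, Tapbp, Erap1 and Nlrc5. Every non-control probe whose accession matched a RefSeq transcript of 1 of these genes was used, which gave 12 probes on 30 spots for 10 genes, of 13716 genes measured in all. Both spleens came from male mice described in the labels as healthy and untreated. The genotypes are Loxl3-/- and Loxl3+/+, and the labels give no age, strain, number of animals or pooling. Loxl3 encodes a lysyl oxidase, a family known for crosslinking collagen and elastin.

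Nearly all nucleated cells display fragments of their own proteins on MHC class I molecules, where CD8+ T cells inspect them and NK cells sense their loss. A class I molecule is a heavy chain paired with beta-2-microglobulin. Peptides made by the proteasome are pumped into the endoplasmic reticulum by the TAP transporter, trimmed by aminopeptidases and fitted into the groove by tapasin. NLRC5 is known as a transactivator of MHC class I genes, and interferon gamma is known to raise most genes of this pathway. Lymphocyte-rich tissue such as spleen is known for high class I expression.

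With 1 array per genotype no difference has a replicate check, no p-value was computed and every value describes these 2 arrays. The error after each ± comes from the scanner software's estimate for single spots, put on the log2 scale of the difference, and it leaves out variation between animals. The knockout-labelled array was brighter, with a 75th percentile signal of 1400.02 against 974 on the wild-type array. Signals were therefore scaled to each array's 75th percentile, which took 0.52 off the log2 difference. The Loxl3 probe had a signal of 125 in the knockout-labelled spleen, against 117 in the wild-type spleen, a scaled difference of −0.43 ± 0.29. The sources used here do not say which part of the gene was deleted, so the probe is no firm check of the label. The spleen markers fixed for B cells (6 of 6), T cells (6 of 7) and red pulp macrophages (6 of 6) were well above background on both arrays.

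No class I presentation gene was 2-fold higher or lower on the knockout-labelled array. Among all genes, 290 (2.11%) stood 2-fold or more above their wild-type level and 271 (1.98%) as far below, 4.09% in both directions together. Of the 10 class I genes, each on its brightest probe, 9 were below 0, against 59.1% of all genes. Of their 12 probes, 11 were below 0, and 8 were below 0 by more than their software error. The member median was −0.39 on the log2 scale, or 0.762 times the wild-type level, and the median of all genes was −0.09. The lowest probe was at −0.67 and the highest at 0.19. In bulk tissue, fewer cells of a type and less RNA per cell cannot be told apart.

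These lower values depended on how the arrays were set to 1 scale, because the difference between the arrays moved with signal. Among 3316 genes with signals of 256 to 1024 the median difference was 0.04. Among 149 genes at 65536 to 262144, the range of B2m, H2-K1 and H2-D1, it was −0.55, and 98.7% were below 0. With this trend removed by a lowess fit, 7 class I probes were below 0 and 5 above, the range was −0.34 to 0.26, and the member median was −0.087. After that step 50.3% of all genes were below 0, and the median of all genes was −0.00215. Quantile normalization gave a member median of −0.093. A difference after trend removal says how a probe stood among probes of like signal on these arrays.

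**Figure D1:**
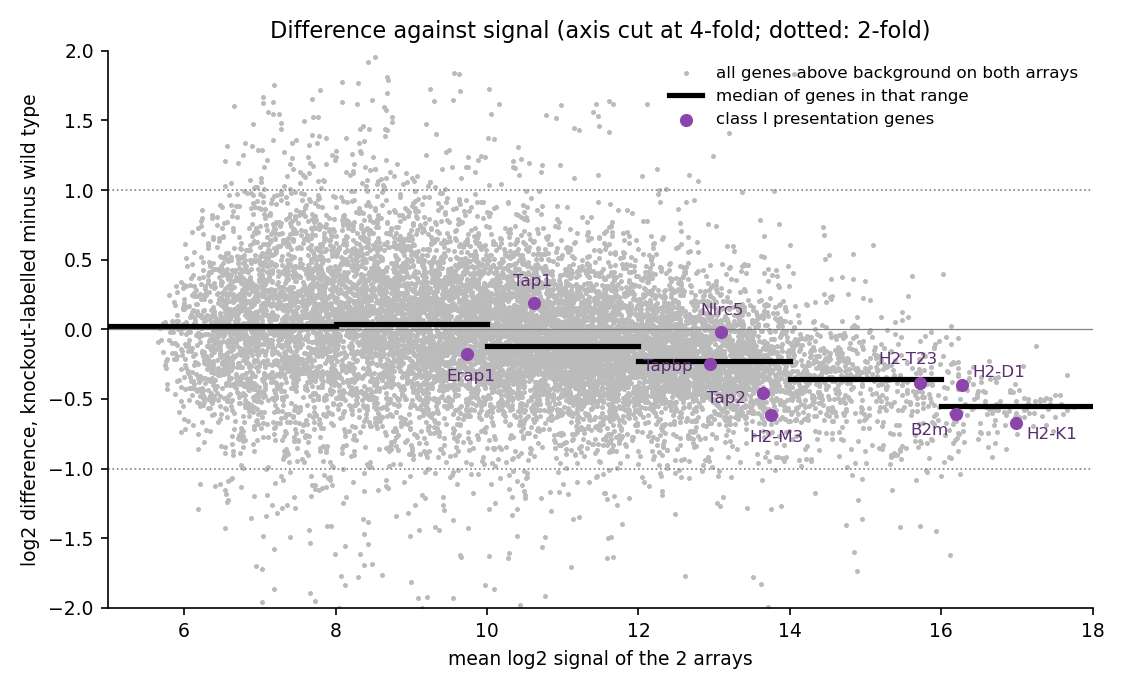
Log2 difference (knockout-labelled minus wild type) against the mean log2 signal of both arrays for every gene above background on both, with the 10 class I presentation genes named and black bars for the median within each signal range. The medians run from 0.03 among the dimmest genes to −0.55 among the brightest, and the class I genes lie between −0.67 and 0.19. H2-M3 and Tap2 lie below the lower quartile of their signal range (−0.39), and H2-K1 below that of its own (−0.65). Tap1, Nlrc5 and H2-D1 lie above the upper quartiles of their ranges (0.12, −0.04 and −0.43 in that order).

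Class I heavy chain genes and B2m are known for control elements just upstream of their starts, shown here for the members in which the letters searched were found together. RefSeq promoter windows (GRCm38.p6) were matched for 8 of 10 members, not for Tap2 or Nlrc5, and the 250 bases before the start were searched on both strands. The letters were TGACG, the core of the CRE-like X2 box, CCAAT, the core of the Y box, and the longest run shared by the windows of H2-K1, H2-D1 and H2-M3, GTTTCACTTCT. Those 3 genes were picked after the windows had been read. The stretches, 5′ to 3′ on the gene's strand with all matches in capitals (ATTGG is CCAAT on the other strand), are those in which a CCAAT match lay downstream of TGACG.
H2-K1: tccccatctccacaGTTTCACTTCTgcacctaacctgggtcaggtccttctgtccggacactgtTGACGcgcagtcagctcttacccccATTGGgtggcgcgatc
H2-D1: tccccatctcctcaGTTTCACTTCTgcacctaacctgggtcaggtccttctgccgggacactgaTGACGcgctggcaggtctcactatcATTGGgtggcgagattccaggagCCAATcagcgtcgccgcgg
H2-M3: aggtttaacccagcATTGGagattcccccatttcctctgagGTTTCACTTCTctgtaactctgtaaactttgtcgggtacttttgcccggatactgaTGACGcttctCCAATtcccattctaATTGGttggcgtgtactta
B2m: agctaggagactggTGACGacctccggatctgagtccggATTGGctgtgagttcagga

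These stretches lie at chr17:34000348-34000452 on the minus strand for H2-K1, and on the plus strand at chr17:35262929-35263059 for H2-D1, chr17:37270091-37270231 for H2-M3 and chr2:122147595-122147652 for B2m. The shared run stood in 16 of 27025 promoters (0.0592%), and 3 of the 8 member windows held it, those it was read from. TGACG was found in 5 of the 8, Tap1 included and H2-T23 not, and in 17.9% of all promoters. CCAAT was found in 7 of the 8, all but Erap1, and in 34.5% of all. Both stood in 5 of the 8 windows and in 6.39% of all, with CCAAT upstream of TGACG in Tap1. In H2-K1, H2-D1 and B2m, 20 bases lay between TGACG and the nearest CCAAT match downstream of it, there as ATTGG. In H2-M3 the nearest match lay 5 bases downstream, and an ATTGG match further on also lay 20 bases from TGACG. A match is a run of letters and was not tested for binding.

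B2m, the light chain that every class I heavy chain needs to reach the cell surface, had a signal of 72706 in the knockout-labelled spleen, against 77119 in the wild-type spleen. Before scaling the difference was −0.085, inside the software error of 0.20. The scaled difference was −0.61 ± 0.20, or 0.656 times the wild-type level. With the signal trend removed it was −0.14, inside the software error.

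H2-K1 and H2-D1 encode the classical heavy chains that show peptides to CD8+ T cells. The H2-K1 probe printed 10 times averaged 123353 in the knockout-labelled spleen, against 136619 in the wild-type spleen. As scanned, its spots ran from 103015 to 148072 with a median of 123707 on the knockout-labelled array, and from 117079 to 155131 with a median of 135528 on the wild-type array. The spots overlapped before scaling, and lay wholly below the wild-type spots for 1.49% of 269 probes with 10 spots. After scaling, the knockout-labelled spots ran from 71704 to 103066 and all lay below the wild-type spots, as those of 15.2% of these probes did. The difference was −0.67 ± 0.20, with an SD of 0.138 over the 10 spots, and −0.14 with the trend removed. The other H2-K1 probe had signals of 55170 in the knockout-labelled spleen, against 50879 in the wild-type spleen. Its difference was −0.41 ± 0.20, and 0.03 with the trend removed, so the probes of H2-K1 had opposite signs on that scale. H2-D1 had signals of 82493 in the knockout-labelled spleen, against 75709 in the wild-type spleen, a difference of −0.40 ± 0.20, or 0.08 with the trend removed. Because heavy chain genes resemble each other closely, 1 probe may also bind transcripts of another.

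**Figure D2:**
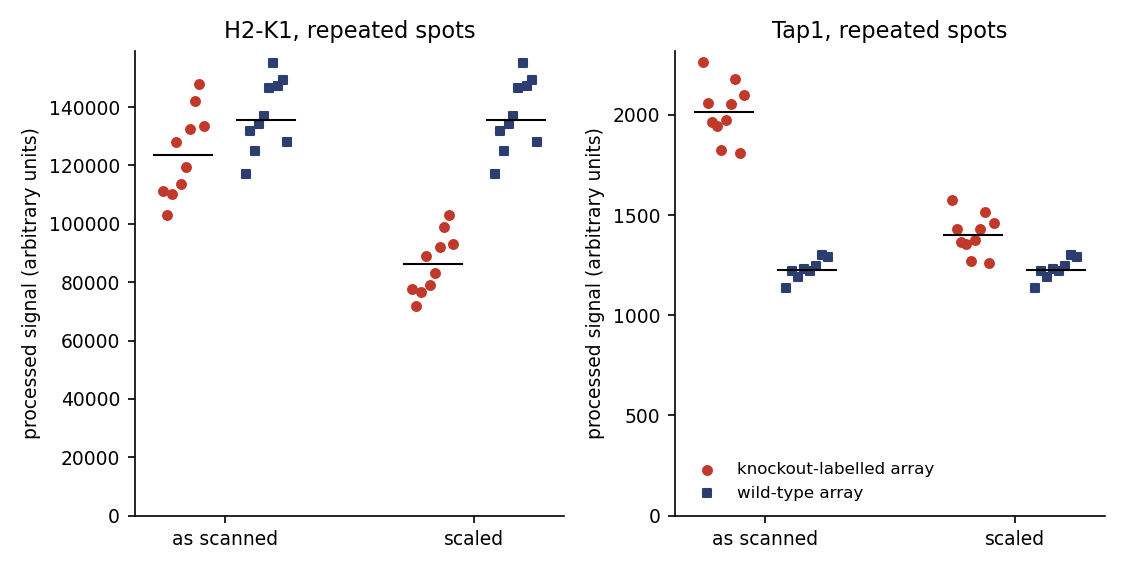
Processed signal of each unflagged spot of the H2-K1 and Tap1 probes printed 10 times, as scanned and after scaling to the wild-type array, with a line at the median. H2-K1 spots overlapped as scanned and separated after scaling, while Tap1 spots were apart as scanned and overlapped after scaling.

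H2-T23 and H2-M3 encode nonclassical heavy chains. H2-T23 carries Qa-1, which shows class I leader peptides to the NKG2A and CD94 receptor of NK cells, and H2-M3 presents formylated bacterial peptides. H2-T23 had signals of 56607 in the knockout-labelled spleen, against 51454 in the wild-type spleen, a difference of −0.39 ± 0.20 that became 0.05 with the trend removed. H2-M3 had 13309 in the knockout-labelled spleen, against 14183 in the wild-type spleen, a difference of −0.61 ± 0.20 (0.653 times the level in wild type). With the trend removed it had the lowest value of the 12 probes, −0.34. Quantile normalization gave −0.35, and so did the deposited value table, whose values matched quantile normalization. H2-M3 was thus 1 of 3 probes beyond their software error on the trend-removed scale, and the only 1 of them below 0.

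**Figure D3:**
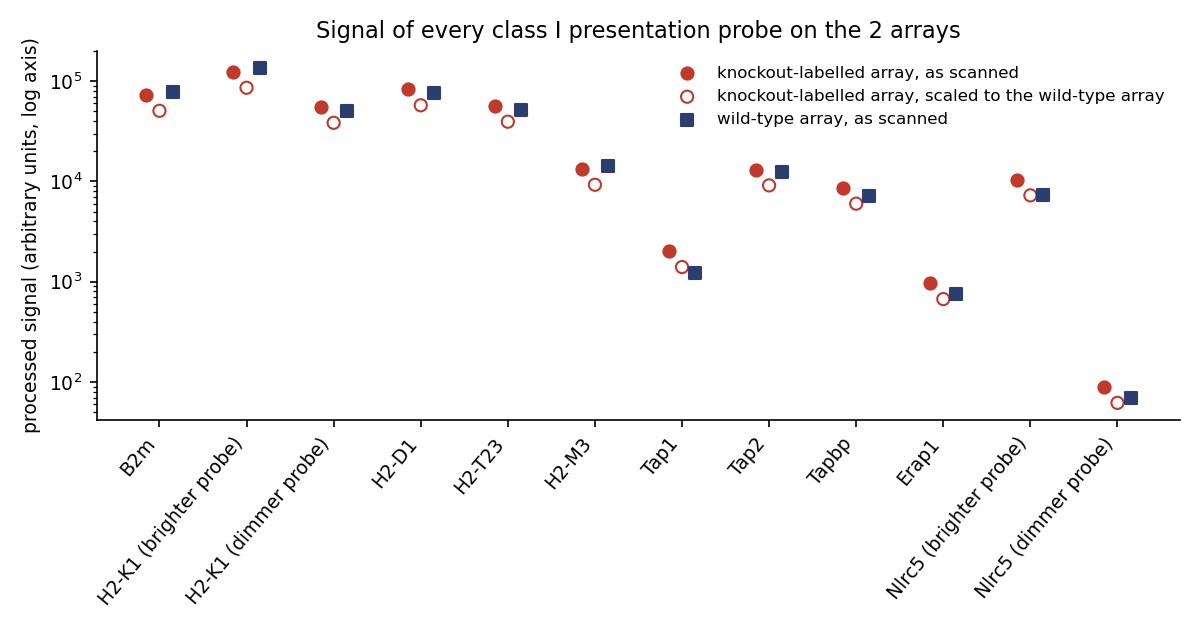
Processed signal (log axis) of the 12 class I presentation probes on the knockout-labelled array as scanned (filled circles) and scaled to the wild-type array (open circles), and on the wild-type array (squares). As scanned, only B2m, the brighter H2-K1 probe and H2-M3 were lower on the knockout-labelled array. After scaling, Tap1 alone was higher.

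The subunits of the peptide transporter had differences of opposite sign. Tap1 had a mean signal of 2012 in the knockout-labelled spleen, against 1229 in the wild-type spleen over its repeated spots. As scanned, its 10 spots on the knockout-labelled array ran from 1810 to 2263 with a median of 2014, and the 8 unflagged spots on the wild-type array from 1138 to 1301 with a median of 1226. All knockout-labelled spots lay above the wild-type spots there, as those of 56.1% of the 10-spot probes did, and the spots overlapped after scaling. The difference was 0.19 ± 0.20, with an SD of 0.106 over 8 spot pairs, and 0.26 with the trend removed. Tap2 had 13115 in the knockout-labelled spleen, against 12534 in the wild-type spleen, a difference of −0.46 ± 0.20, or −0.19 with the trend removed. The signs of Tap1 and Tap2 were opposite under the 75th percentile scaling, median scaling, quantile normalization and trend removal, but both were above 0 with no scaling (0.71 and 0.07).

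Tapbp encodes tapasin, which bridges TAP and the empty heavy chain, and Erap1 the aminopeptidase that trims peptides in the endoplasmic reticulum. Tapbp had signals of 8622 in the knockout-labelled spleen, against 7147 in the wild-type spleen, a difference of −0.25 ± 0.20, or −0.04 with the trend removed. Erap1 had 965 in the knockout-labelled spleen, against 760 in the wild-type spleen, a difference of −0.18 ± 0.21 that stayed at −0.18 with the trend removed. Both stood within or close to their software error.

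Nlrc5, the regulator that drives class I genes through the X and Y boxes, had the difference closest to 0 on its brighter probe under the 75th percentile scaling, but not with the trend removed or with no scaling. This probe had signals of 10432 in the knockout-labelled spleen, against 7354 in the wild-type spleen, a difference of −0.02 ± 0.20, or 0.21 with the trend removed. Its dimmer probe had 89.1 in the knockout-labelled spleen, against 69.6 in the wild-type spleen, a difference of −0.17 ± 0.37, or −0.16 with the trend removed. The probes thus differed in sign on the trend-removed scale, and the direction of Nlrc5 cannot be given.

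**Figure D4:**
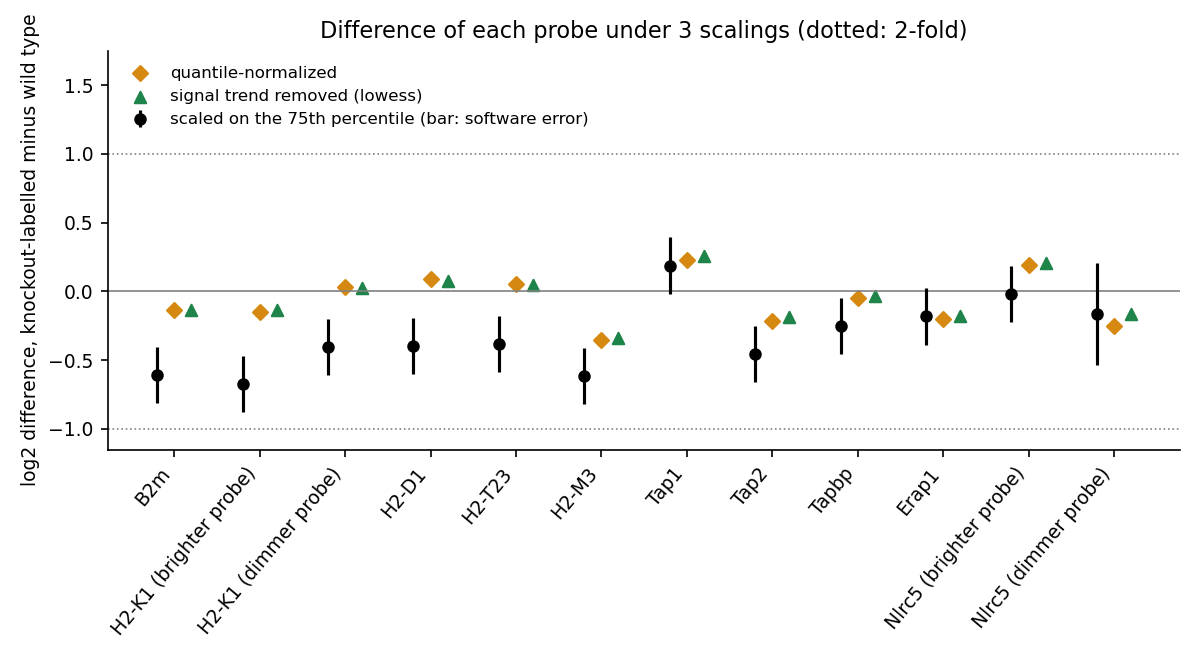
Log2 difference (knockout-labelled minus wild type) of each probe, scaled on the 75th percentile with its software error, quantile-normalized, and with the signal trend removed. No value reaches the dotted 2-fold lines, and the bright probes of B2m, H2-K1, H2-D1 and H2-T23 move up by 0.43 to 0.53 when the trend is removed.

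Other class I heavy chain genes, each on its brightest probe, had differences from −0.90 to 0.36, a wider range than the members had. Of 25 listed, 18 had a named probe and 9 were above background, and 7 of these 9 were below 0, with a median of −0.34 and none at 2-fold. H2-M11, a nonclassical gene of the M region, was lowest at −0.90 ± 0.20, with signals of 4454 in the knockout-labelled spleen, against 5797 in the wild-type spleen, and −0.72 with the trend removed. H2-Q2 and H2-Q8, of the Q region, were at −0.49 and −0.46. With the trend removed 6 of the 9 were above 0, and the median was 0.04. Probes of 1 gene disagreed for H2-Q10, at 0.36 and −0.26, a gene picked after its values were seen. H2-T24, picked likewise, was at 0.16 on its brighter probe. Its dimmer probe, above background only in the knockout-labelled spleen, was at 0.94 or more. A wider set was taken by place, from the heavy chain genes of the class I region on chromosome 17 in the RefSeq table. It holds the 4 member heavy chain genes and H2-K2 (−0.79 and −0.35 on its probes), which is not on the list above, and leaves out H2-Q8, which that table places outside the region. Its 13 genes had 18 probes above background, with 15 below 0 under the 75th percentile scaling and 7 with the trend removed.

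**Figure D5:**
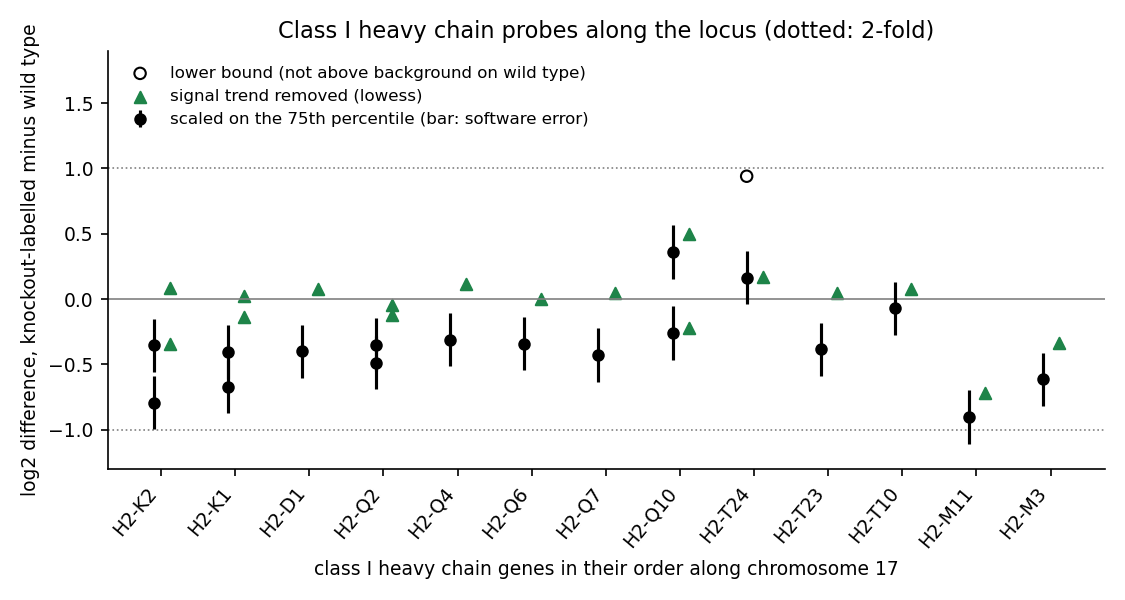
Log2 difference (knockout-labelled minus wild type) of the class I heavy chain probes above background in the class I region of chromosome 17, with genes in their RefSeq order along chromosome 17. No plotted value of the 18 probes reaches 2-fold, and H2-M11 lies lowest at −0.90. The open circle of H2-T24, at 0.94, is a lower bound, since only the knockout-labelled array had that probe above background. Whether that probe reaches 2-fold cannot be told.

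Class I-like molecules pair with beta-2-microglobulin or share the heavy chain fold and have other ligands. None of 5 measured was at 2-fold, and the median was 0.20, or 0.32 with the trend removed. Cd1d1, which presents lipids to NKT cells, had a difference of −0.63 ± 0.20 on its brighter probe, and −0.35 on the dimmer. Mr1, which presents vitamin B metabolites to MAIT cells, was at 0.40 and the neonatal Fc receptor gene Fcgrt at 0.31.

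The machinery that makes and trims peptides was mostly below 0, in 11 of 13 genes, with a median of −0.10, against 59.1% and −0.09 for all genes. With the trend removed 7 were above 0 and 6 below, with a median of 0.0076. Psme3, a proteasome activator subunit of the nucleus, was the only 1 at 2-fold, 0.495 times the wild-type level (−1.01 ± 0.20), with signals of 12038 in the knockout-labelled spleen, against 16914 in the wild-type spleen. It was at −0.73 with the trend removed. The immunoproteasome subunits, named after their values were seen, were at −0.65 for Psmb9, −0.35 for Psmb8 and −0.02 for Psmb10. With the trend removed they were at −0.33, −0.05 and 0.26 in that order. Psmb9 and Psmb8 are neighbours of the TAP genes in the class II region.

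Among 11 chaperones and editors of the endoplasmic reticulum, 1 was at least 2-fold higher and none lower, and the median was −0.01. It was Pdia2, a protein disulfide isomerase best known from the exocrine pancreas, at 3.43 ± 0.26, or 10.8-fold, with 1725 in the knockout-labelled spleen, against 112 in the wild-type spleen. Its other probe was at 3.36. All 12 acinar pancreas markers stood 2-fold or more above their wild-type level, with summed scaled signals of 167751 in the knockout-labelled spleen and 18535 in the wild-type spleen, and none was at 0 on either array. Calr and Pdia3, which hold the heavy chain in the peptide-loading complex and are named after their values were seen, were at 0.40 and 0.78. With the trend removed they were at 0.67 and 1.05 in that order, and the median of the 11 was 0.23, with 7 above 0 and 4 below. The part of the pancreas signal in these values was not tested.

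Of 21 transcription factors and signalling genes that control class I expression, none was at 2-fold, and the median was −0.09, that of all genes. Irf1, the interferon gamma-induced activator, was at −0.75 ± 0.20, with 37858 in the knockout-labelled spleen, against 44261 in the wild-type spleen. It stayed below 0 with the trend removed, at −0.35. Irf8 was at −0.46, and −0.07 with the trend removed.

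Genes of the interferon response stood further below 0 than the class I genes on the trend-removed scale. Of 12 interferon-induced genes measured, 11 were below 0 with Oas1a lowest at a ratio of 0.496 to wild type and a list median of −0.60. With the trend removed all 12 were below 0 and the median was −0.38, while the class I genes had 6 of 10 below 0 and a median of −0.087. Whether these lists differ was not tested. Markers of neutrophil precursors and platelets were also lower on the knockout-labelled array. Of 11 neutrophil precursor markers 10 were at least 2-fold lower, with summed scaled signals of 58315 there and 201131 on the wild-type array, and of 6 platelet markers 5 were, with 13439 and 45768 in the same order. No marker of either list was at 0. Dendritic cell markers had 4 above 0 and 3 below, with a median of 0.18 and 1 at least 2-fold lower. Erythroid markers had 3 above 0 and 2 below, with a median of 0.06 and 1 at least 2-fold lower. The B cell, T cell and red pulp macrophage lists had medians of −0.25, −0.13 and −0.07, and 1 B cell marker was at least 2-fold higher. The part of these cells in the class I values was not tested.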

How the data were processed

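Total RNA of mouse spleen was labelled with Cy3 and hybridised to 2 one-colour arrays, 1 per genotype, per the labels' protocols. The authors deposited linear intensity values per spot, made with Agilent Feature Extraction 11.0.1.1 and protocol GE1_1100_Jul11 on a design of build mm9, per the file headers. The authors' deposited value table holds log2 values with a median of 6.71 on both arrays. Its steps are read from its values, which matched quantile-normalized log2 processed signals, with 7 of 39420 probes off by over 0.5. Both arrays were on 1 slide and scanned together, per the file headers.

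Control spots and outlier-flagged spots (132 on the knockout-labelled array, 110 on the wild-type array) were left out, and no spot was saturated. Log2 processed signals were averaged per probe and each array's 75th percentile was subtracted. Accessions without versions matched RefSeq (GRCm38.p6) for 27226 probes, and 12194 stayed unnamed. Each gene took the value of the brightest of its probes well above background on at least 1 array. The 682 genes above background on 1 array alone entered by their bound, against the lowest signal above background on the other. A difference of 2-fold or more was counted, and no test was run. The number of arrays limits the precision.

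The members, lists, naming rule and alternatives were chosen with earlier results of these data known. The rule names all members, and in each other list the genes at 2-fold or, with none, the 3 of largest size. A gene that the rule names is not reported here. Likeness of pattern to other genes was not computed, since 2 arrays give 1 difference per gene. The files hold no mean spot signal, so normexp (limma 3.58.1, offset 50) used median signals. Calculations ran in Python 3.11.15 with statsmodels 0.14.6, and counting was checked on simulated arrays. Those had a constant offset and no trend with signal, so they do not check the counts under such a trend. Promoter letters for NF-kappaB and interferon elements were tried first and dropped, since the letters came from no file used here.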

Additional observations from a re-analysis of the deposited data

How the results depend on the processing

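No member reached 2-fold in either direction under any of 12 settings (0 higher and 0 lower in each). The member median of −0.39 was −0.093 with quantile normalization, −0.088 in the deposited value table, −0.087 with the trend removed and 0.13 with no scaling. The number of member probes below 0, 11 in the report, was 7 under the first 3 of these and 3 with no scaling. The deposited values matched quantile normalization, so those settings are not separate procedures. Of 120 single probe values under other settings 83 moved by less than the software error, 37 further, 37 of them upwards. Settings that change only the filter leave these values as they were. Scaling on the median, on probes above background on both arrays, or not at all shifts every probe by the same amount. These counts therefore do not measure how stable a probe value is. Genes at least 2-fold higher, 290 in the report, numbered 445 when scaled on probes above background on both arrays, 1397 with no scaling, 150 with normexp and 613 with no filter on dim probes. Genes at least 2-fold lower, 271 in the report, numbered 80 with no scaling, 177 with normexp and 699 with no filter. The share higher among 2-fold genes was 51.7%, and 39.0% with median scaling, 71.0% with scaling on probes above background on both arrays and 94.6% with no scaling. Those scalings put the median of all genes at −0.19, 0.05 and 0.43. Removing the trend was chosen after seeing the data. No paired analysis was possible because each genotype has 1 array. The cause of the trend with signal was not tested. The software error of about 0.20 per probe limits what can be read from these arrays.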

Other observations

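Receptors that read class I molecules were measured for 12 of 15 listed genes, and none was at 2-fold. Their median was 0.06, or 0.24 with the trend removed. Klra1, an inhibitory Ly49 receptor gene of NK cells, was at −0.80 ± 0.20, with signals of 2033 in the knockout-labelled spleen, against 2459 in the wild-type spleen. Klrk1, which encodes the activating receptor NKG2D, was at 0.69 ± 0.21, with 532 in the knockout-labelled spleen, against 229 in the wild-type spleen. Klrc1, which encodes the NKG2A receptor for Qa-1, passed background only in the knockout-labelled spleen, where it was at least 1.67-fold higher. Ly49 genes resemble each other closely, and 1 probe may bind transcripts of another. Cd8a, the coreceptor of class I-restricted T cells and named after its values were seen, was at −0.30 ± 0.20 on its brighter probe and 0.43 on the other.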
